A study of Homo sapiens with 6 samples.

Results

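The genes examined here were NRXN3, CNTNAP2, CNTNAP4, CNTNAP5, CNTN1, CNTN3, CNTN4, CNTN5 and CNTN6, 9 members of the neurexin and contactin families. All regions that overlapped one of these gene bodies in the GRCh38 gene table by at least 1 bp were taken as members, which gave 72 of 40106 regions in the hPSC list, 73 of 39368 in the shLUC list and 66 of 36277 in the shHNRNPU list. The rule lists the genes by name and does not take in the whole of either family, other genes of which are given near the end. The 9 bodies span 8.52 Mb in total, from 283 kb for CNTNAP4 to 2.30 Mb for CNTNAP2, out of 20033 protein-coding genes on 24 chromosomes.

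Neurexins are cell surface proteins of the presynaptic terminal that bind partners such as neuroligins across the synaptic cleft. Their genes use more than one promoter, so that long and short forms start far apart in the same gene. Contactins are adhesion molecules of the immunoglobulin superfamily that are tethered to the membrane by a lipid anchor, and the contactin-associated proteins (CNTNAP) are transmembrane relatives of the neurexins that pair with them on axons. These genes are known for their neuronal roles and for the great length of their introns. Matrix attachment regions are stretches of DNA that remain on the nuclear matrix, an insoluble meshwork of protein and RNA, after loose chromatin has been washed away.

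The regions came from MAR-seq, in which DNA retained by the nuclear matrix is sequenced, in the H1 line, an established human embryonic stem cell line grown in mTeSR1 on Matrigel. The 6 samples formed 3 groups of 2. The hPSC group had no treatment, the shHNRNPU group carried a short hairpin RNA against HNRNPU, an RNA-binding protein of the nuclear matrix, and the shLUC group carried a hairpin named LUC, used here as the hairpin control. Per the labels, nuclei of all groups were prepared with detergent, treated with formaldehyde and cut with the restriction enzymes MspI, HaeIII, RsaI, AluI, BamHI and PvuII. How the hairpins were delivered, for how long, and how far HNRNPU fell were not given in the labels, and the lists hold no expression value for HNRNPU or for markers of pluripotent cells.

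Each group was represented by 1 list, so no value below has a replicate error and no test between groups was made. Read depth is unknown. Every region was 400 bp wide with a score of 0, so a region is either listed or not. The intervals given are exact 95% Poisson intervals for counts and densities and exact 95% Clopper-Pearson intervals for shares and for ratios of counts. They cover counting error only and treat regions as independent. Intervals of ratios also treat the lists compared as independent, although lists can share regions.

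Regions at the starts of these genes come first, because there the sequence is known. A promoter window was taken as the 250 bases before and the 50 bases after an annotated transcription start, and the RefSeq table listed 13 windows for the 9 genes. Regions of at least 1 list lay over 6 of these windows, 1 each in NRXN3, CNTNAP2, CNTNAP5, CNTN3, CNTN4 and CNTN5. The 6 windows are printed because they are the only windows of the 9 genes that carried a region, and because their sequence can be set against the enzymes used to release DNA from the matrix. They are from RefSeq (GRCh38.p14), 5′ to 3′ in the direction of the transcript. Capitals mark recognition sites of the 6 enzymes.
CNTN5 (chr11:99020699-99020998, plus strand): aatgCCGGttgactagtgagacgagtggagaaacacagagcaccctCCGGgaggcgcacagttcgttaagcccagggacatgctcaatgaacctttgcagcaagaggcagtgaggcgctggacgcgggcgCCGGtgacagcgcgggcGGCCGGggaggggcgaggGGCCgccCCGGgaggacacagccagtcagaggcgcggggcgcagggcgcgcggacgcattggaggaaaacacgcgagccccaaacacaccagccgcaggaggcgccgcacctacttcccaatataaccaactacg
CNTN4 (chr3:2098616-2098915, plus strand): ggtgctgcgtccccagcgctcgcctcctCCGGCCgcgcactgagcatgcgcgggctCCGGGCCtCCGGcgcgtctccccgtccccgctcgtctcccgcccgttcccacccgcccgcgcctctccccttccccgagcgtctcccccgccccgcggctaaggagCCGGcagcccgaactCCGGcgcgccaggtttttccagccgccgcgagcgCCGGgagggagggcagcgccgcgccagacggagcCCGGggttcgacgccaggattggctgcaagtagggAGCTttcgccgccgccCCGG
CNTN3 (chr3:74614610-74614909, minus strand): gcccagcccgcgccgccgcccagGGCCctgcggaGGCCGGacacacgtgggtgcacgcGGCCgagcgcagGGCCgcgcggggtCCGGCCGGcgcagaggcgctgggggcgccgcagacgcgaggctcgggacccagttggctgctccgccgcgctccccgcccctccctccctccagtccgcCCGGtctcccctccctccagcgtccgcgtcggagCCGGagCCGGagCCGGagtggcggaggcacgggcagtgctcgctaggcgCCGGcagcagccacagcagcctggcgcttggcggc
NRXN3, internal start (chr14:79279130-79279429, plus strand): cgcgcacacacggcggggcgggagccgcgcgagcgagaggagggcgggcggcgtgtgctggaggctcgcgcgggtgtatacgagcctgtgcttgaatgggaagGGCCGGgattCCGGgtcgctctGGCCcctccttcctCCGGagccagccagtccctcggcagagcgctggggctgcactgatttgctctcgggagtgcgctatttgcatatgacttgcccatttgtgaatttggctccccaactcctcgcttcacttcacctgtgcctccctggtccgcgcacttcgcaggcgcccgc
CNTNAP5 (chr2:124025037-124025336, plus strand): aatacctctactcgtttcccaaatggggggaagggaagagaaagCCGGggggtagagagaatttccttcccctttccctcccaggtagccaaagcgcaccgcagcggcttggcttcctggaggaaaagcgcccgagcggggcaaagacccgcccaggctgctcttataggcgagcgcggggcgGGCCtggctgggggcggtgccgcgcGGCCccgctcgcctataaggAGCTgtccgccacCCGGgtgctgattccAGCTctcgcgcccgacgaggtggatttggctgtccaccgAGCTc
CNTNAP2 (chr7:146116551-146116850, plus strand): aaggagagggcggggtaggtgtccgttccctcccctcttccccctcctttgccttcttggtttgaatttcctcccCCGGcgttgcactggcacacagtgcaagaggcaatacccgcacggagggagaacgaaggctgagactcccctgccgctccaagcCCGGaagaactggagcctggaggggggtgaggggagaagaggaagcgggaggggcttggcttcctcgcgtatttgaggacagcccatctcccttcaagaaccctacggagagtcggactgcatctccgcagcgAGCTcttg

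The start of CNTN5, a contactin known from the auditory system, was the only one listed in all 3 groups at the same coordinates, chr11:99020742-99021141. This region covered bases 44 to 300 of the window. The start of CNTN4, a contactin of the olfactory and visual systems, was also listed in all 3 groups, at chr3:2098674-2099073 in both hairpin lists and at chr3:2098648-2099047 in hPSC, and thus began 26 bases earlier there. At the start of CNTN3, the only minus-strand gene of the 9, both hairpin lists held chr3:74614460-74614859, which covered 250 bases of the window. The hPSC list held chr3:74614231-74614630, which lay further into the gene and covered only the last 21 bases of the window.

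The other 3 starts were not listed in every group. The internal start of NRXN3, 1109 kb into the gene, was under a region in hPSC (chr14:79279061-79279460) and in shLUC (chr14:79279053-79279452), both of which covered all 300 bases, and under none in shHNRNPU. The start of CNTNAP5, a contactin-associated protein of the nervous system, was under a region in hPSC (chr2:124025094-124025493) and in shHNRNPU (chr2:124025200-124025599) and under none in shLUC. The start of CNTNAP2, which codes for CASPR2, a protein that clusters potassium channels on myelinated axons, was under a region in shLUC alone (chr7:146116718-146117117). An hPSC region was close by, with its centre 0.687 kb from that of the shLUC region, but it did not overlap the window. The hairpin lists therefore differed at 3 starts, 2 listed in shLUC and not in shHNRNPU and 1 the other way round. Of the regions over these windows, 3 of 5 in shLUC and 3 of 4 in shHNRNPU overlapped the other hairpin list. Among all regions over a promoter window the shares were 77.6% and 72.8%, so unshared starts were not particular to these genes. No region of any list lay over the windows of CNTNAP4 and CNTN6, the window at the 5′ end of NRXN3 and that 233 kb into it, the second window of CNTN4, or the windows of CNTN1, which lie 136 kb and 216 kb into that gene. For CNTN1, an axonal contactin, the hPSC list held a region 0.714 kb from the 5′ end of the gene body, a position for which the table had no window.

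**Figure D1:**
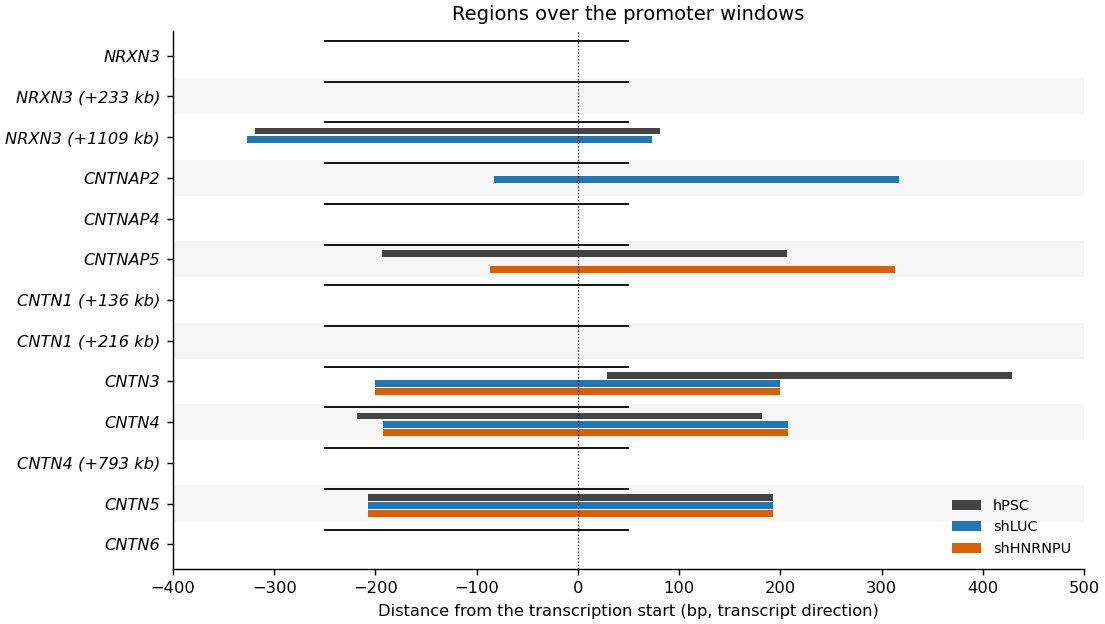
Regions over the 13 promoter windows of the 9 genes. The horizontal axis gives the distance in bp from the transcription start in the direction of the transcript, with a dotted line at 0. Black lines mark the 300-base windows, coloured bars the 400 bp regions of each list, and a value in brackets the distance of an internal start from the 5′ end of the gene. CNTN3, CNTN4 and CNTN5 have a bar of each list, and 7 windows have none.

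By gene, 5 of 9 had a window under a region in hPSC, 5 of 9 in shLUC and 4 of 9 in shHNRNPU. Among all 15842 protein-coding genes with a window, 36.4% had one under an hPSC region, 19.4% under a shLUC region and 20.6% under a shHNRNPU region. All 3 lists were present at 3 of the 9 genes (interval 7.49% to 70.1%), against 7.55% of all protein-coding genes with a window and 14.1% of the other 1150 genes of at least 200 kb that had a window. With 9 genes the intervals are wide, and those other long genes were also listed more often than protein-coding genes at large, with 45.2% in hPSC, 34.6% in shLUC and 35.2% in shHNRNPU.

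The windows with a region and those without differed in base composition. GC content was 61.7% to 80.3% in the 6 windows with a region and 35.0% to 58.0% in the 7 without, so the ranges did not meet. The number of CG dinucleotides was 16 to 46 in the former and 2 to 13 in the latter. Over all 22198 windows of protein-coding genes the same direction was seen with much overlap, with a median GC content of 67.3% in the 8709 windows with a region of any list, 58.0% in the 13489 without and 71.3% in the 1323 with a region of all 3 lists. The part of base composition in where regions were listed was not tested.

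The enzyme sites were counted in the same windows. The sites searched were CCGG (MspI), GGCC (HaeIII), GTAC (RsaI), AGCT (AluI), GGATCC (BamHI) and CAGCTG (PvuII). All 6 read the same on both strands. The PvuII site contains the AluI site, and MspI and HaeIII sites can share bases, as in the run CCGGCC at the start of CNTN4. CCGG was present in all 6 windows with a region and in 3 of the 7 without, against 92.5% and 62.0% of all protein-coding windows with and without a region. It occurred 8 times in each of the CNTN3 and CNTN4 windows and 5 times in that of CNTN5, and these were the 3 starts listed in every group. GGCC was present in 5 of the 6 and 4 of the 7, with the CNTNAP2 window as the exception among the 6 (93.3% and 78.5% of all). AGCT was present in 3 of the 6 and in all 7 of the windows without a region (70.8% and 75.4% of all). CAGCTG was present in none of the 6 and in 4 of the 7 (16.6% and 18.9% of all). GTAC and GGATCC were in none of the 13 windows, against 28.0% and 7.22% of all windows. These are counts of letters in windows of fixed length and do not show where DNA was cut.

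Across the gene bodies, regions were sparse. The 9 genes together held 8.45 regions per Mb in hPSC (interval 6.61 to 10.6), 8.57 in shLUC (6.71 to 10.8) and 7.74 in shHNRNPU (5.99 to 9.85). The other 1390 protein-coding genes of at least 200 kb held 12.7, 13.2 and 12.1 regions per Mb, so the density in the 9 genes was 66.5%, 64.7% and 63.8% of theirs. All protein-coding genes together held 18.5, 18.3 and 17.1. In hPSC all 9 genes lay below the median of the other long genes (12.9 regions per Mb), in shLUC 8 of 9 did (13.2) and in shHNRNPU all 9 (12.3). In each list 5 of the 9 lay below the lower quartile.

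The comparison changed with the length of the genes set beside the 9. The 66 other protein-coding genes of at least 1 Mb held 7.70 regions per Mb in hPSC (interval 7.14 to 8.29), 8.96 in shLUC (8.35 to 9.60) and 8.32 in shHNRNPU (7.73 to 8.93). The 9 genes were at 110%, 95.6% and 93.1% of these densities, and their intervals held the values of the longest genes in all 3 lists. The lower density of the 9 genes together was thus not seen beside genes of over 1 Mb. That set was not limited to autosomes, on which all 9 genes lie. Only NRXN3, CNTNAP2 and CNTN5 are themselves that long, so the comparison was not matched for length for the other members. Those shorter members held 3.53 to 8.34 regions per Mb in hPSC, 4.46 to 14.6 in shLUC and 3.21 to 10.4 in shHNRNPU. The medians of the other long genes were 12.9, 13.2 and 12.3, and of the shorter members only CNTN4 in shLUC lay above. A comparison of the shorter members with genes of their own length was not tested.

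**Figure D2:**
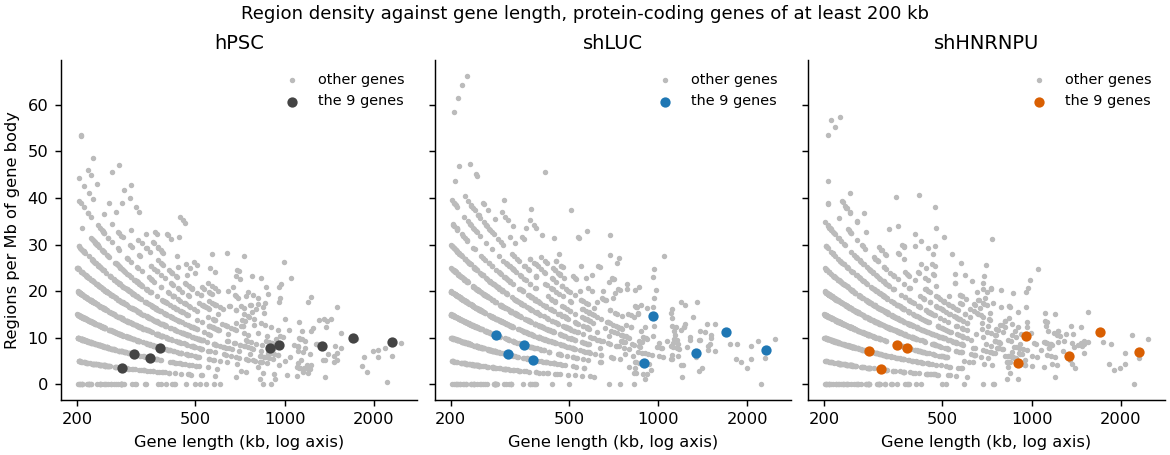
Region density against gene length for protein-coding genes of at least 200 kb, 1 panel per list. The vertical axis gives regions per Mb of gene body, the horizontal axis gene length in kb on a log scale, and each point is a gene (grey, 1390 other genes; coloured, the 9 neurexin and contactin family genes). Curved bands of grey points are genes with the same whole number of regions. The coloured points lie in the lower part of the cloud at short lengths and within it at long lengths.

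NRXN3, a neurexin, held 17 regions in hPSC, 19 in shLUC and 19 in shHNRNPU over its 1698 kb (chr14:78170373-79868291). These are 10.0, 11.2 and 11.2 regions per Mb, which placed it at percentiles 37.8, 40.1 and 44.1 of the other long genes. It was the densest of the 9 in hPSC and shHNRNPU. The hPSC list held 12 of its 17 regions on the 5′ side of the midpoint, and the hairpin lists held 9 and 10 of 19 there. The longest stretch of NRXN3 without a region measured 263 kb in the hPSC list, and 320.4 kb and 331 kb in those of shLUC and shHNRNPU.

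CNTNAP2 (chr7:146116801-148420998), the longest of the 9, held 21, 17 and 16 regions in hPSC, shLUC and shHNRNPU. Its density of 9.11, 7.38 and 6.94 regions per Mb was below that of NRXN3 in each list. The last 10% of the gene, at its 3′ end, held 5 of 21, 4 of 17 and 4 of 16. In the other long genes with a known strand the last 10% held 9.61%, 10.6% and 10.5% of regions. These counts are too small to show a gathering there, and the hairpin lists shared chr7:148267259-148267658 and chr7:148346901-148347300. The first 10% of CNTNAP2 held 1, 2 and 1. CNTNAP5 (chr2:124025287-124921219) held 7, 4 and 4 regions over 896 kb. At 4.46 regions per Mb it was the sparsest of the 9 in shLUC, and it was at percentiles 24.2, 10.6 and 12.3 of the other long genes. CNTNAP4 (chr16:76277401-76560757), whose product is found at synapses of inhibitory interneurons, held 1, 3 and 2 regions. Its hPSC region lay 35.7% into the gene, and all of its hairpin regions lay between 61.0% and 67.4%.

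Among contactins, CNTN4 (chr3:2098866-3057959) had the most regions in shLUC and shHNRNPU, though not in hPSC. It held 8, 14 and 10 regions in hPSC, shLUC and shHNRNPU over 959 kb. Its 14.6 regions per Mb in shLUC were the only value of the 27 above the median of the other long genes, with an interval from 7.98 to 24.5. CNTN5 (chr11:99020949-100358885) held 11, 9 and 8 regions over 1338 kb. It had the longest empty stretch of the 9, 699.1 kb in hPSC between the regions ending at position 99532095 and starting at 100231216, where shLUC held 3 regions and shHNRNPU held 3. CNTN1 (chr12:40692439-41072415) held 3, 2 and 3 regions, CNTN3 (chr3:74262568-74614659) 2, 3 and 3, and CNTN6 (chr3:1093024-1404217), a contactin of the cerebellum, 2, 2 and 1. These 3 genes are each under 400 kb long. With at most 3 regions a gene, their intervals all overlapped.

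The order of densities was not resolved by these counts. In each list, the Poisson intervals of all 8 pairs of neighbours in the order overlapped, and so did those of the first and the last gene. The order ran from NRXN3 at 10.0 to CNTNAP4 at 3.53 regions per Mb in hPSC, from CNTN4 at 14.6 to CNTNAP5 at 4.46 in shLUC and from NRXN3 at 11.2 to CNTN6 at 3.21 in shHNRNPU.

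**Figure D3:**
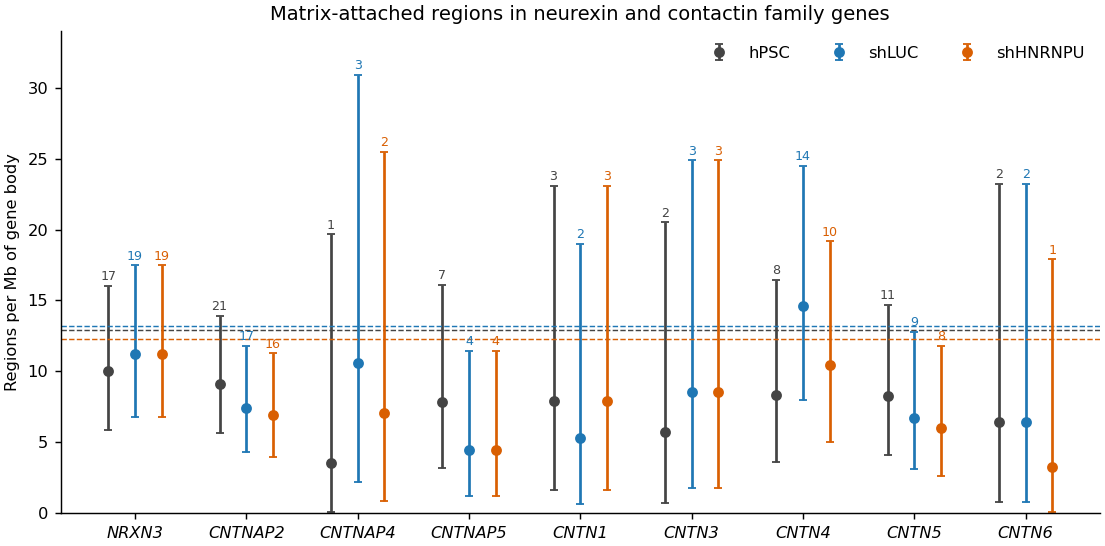
Density of regions in each of the 9 genes, in regions per Mb of gene body. Points are the values of the hPSC, shLUC and shHNRNPU lists, bars exact 95% Poisson intervals, numbers above the bars the regions counted, and dashed lines the medians of the other 1390 protein-coding genes of at least 200 kb in the same 3 lists. Only CNTN4 in shLUC lies above its line, and the intervals of neighbouring genes overlap.

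The knockdown comparison asked whether fewer regions were listed in these genes with the hairpin against HNRNPU. The 9 genes held 66 regions in shHNRNPU and 73 in shLUC, a log2 ratio of -0.15 (interval -0.65 to 0.35). Since 53 regions were the same in both lists, the counts were not independent, and this interval does not measure the error of their difference. The whole lists differed by a log2 ratio of -0.12, and the median over the 859 protein-coding genes with at least 10 regions in both lists together was -0.15. The difference in the 9 genes was close to that of the lists. NRXN3 (19 and 19), CNTNAP2 (16 and 17), CNTN4 (10 and 14) and CNTN5 (8 and 9) had at least 10 regions in both lists together, and 0 of these 4 differed by 1.5-fold or more. Over all protein-coding genes with that minimum, 19.7% did, 16.1% with fewer regions in shHNRNPU and 3.61% with more. CNTN4 had the largest difference of the 4, 4 regions fewer, with a log2 ratio of -0.49 (interval -1.82 to 0.79). The remaining 5 genes differed by at most 1 region each.

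Against untreated cells, the 9 genes held 72 regions in hPSC and 73 in shLUC, a log2 ratio of -0.02 (interval -0.51 to 0.47). Of 5 genes with at least 10 regions in both lists together, 2 differed by 1.5-fold or more, in opposite directions. CNTNAP5 had 7 regions in hPSC and 4 in shLUC, a log2 ratio of 0.81 (interval -1.17 to 3.03). CNTN4 had 8 and 14, a log2 ratio of -0.81 (interval -2.27 to 0.55). Both intervals included 0. Among all protein-coding genes with the same minimum, 48.0% differed this much, 21.6% with more and 26.4% with fewer regions in hPSC, so 2 of 5 was near the background. Both comparisons use the same shLUC list. By their sample numbers, the hPSC samples were entered apart from the hairpin samples. Carrying a hairpin and any difference between these sets of samples cannot be told apart, here or in the overlaps with hPSC below.

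Equal counts hid different positions. Of the 73 shLUC regions in the 9 genes, 53 overlapped a shHNRNPU region (72.6%, interval 60.9% to 82.4%), and 10 overlapped an hPSC region (13.7%, interval 6.77% to 23.8%). The latter share was 23.3% when centres within 5 kb counted as shared and 8.82% when regions over promoter windows were left out. Of the 66 shHNRNPU regions, 53 overlapped shLUC (80.3%, interval 68.7% to 89.1%) and 11 overlapped hPSC (16.7%, interval 8.62% to 27.9%). In the other long genes these shares were 71.3%, 12.6%, 77.6% and 15.5%, all within the intervals of the 9 genes. In NRXN3, 16 of 19 regions were common to the hairpin lists, while 2 of 19 in shLUC and 4 of 19 in shHNRNPU overlapped an hPSC region. In CNTN3 all 3 regions were common to the hairpin lists. In CNTNAP4 no hairpin region overlapped the single hPSC region.

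All 53 common regions of the hairpin lists had the same start and the same end in both, and over the whole lists this held for 27865 of 27868. Of the 10 shLUC regions of these genes that overlapped hPSC, 5 had the same coordinates and 5 were shifted. Whether the hairpin lists were drawn from 1 common set of candidate regions was not stated in the labels, so a region called in both and a region taken over from a common set cannot be told apart.

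The 33 regions found in a single hairpin list were made up of 20 in shLUC and 13 in shHNRNPU. The share in shLUC was 60.6% (interval 42.1% to 77.1%), against 58.3% in the other long genes. CNTN4 accounted for 5 of the 20 and 1 of the 13, and CNTNAP2 for 6 and 5. In CNTN4 the 5 regions of shLUC alone were chr3:2121403-2121802, chr3:2388807-2389206, chr3:2420517-2420916, chr3:2816333-2816732 and chr3:2882060-2882459. The third of these was also in hPSC at the same coordinates. The 1 region of shHNRNPU alone was chr3:2624708-2625107. NRXN3 exchanged 3 regions for 3, so that its 19 and 19 were not the same set, and CNTN3 exchanged none.

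Regions in a single hairpin list overlapped hPSC in larger proportion than those in both. In the 9 genes, 5 of 53 regions in both hairpin lists overlapped an hPSC region (9.43%, interval 3.13% to 20.7%), 5 of 20 in shLUC alone (25.0%, interval 8.66% to 49.1%) and 6 of 13 in shHNRNPU alone (46.2%, interval 19.2% to 74.9%). The other long genes had the same order with 11.8%, 14.8% and 28.5%, and so had all regions with 13.6%, 15.7% and 29.5%. NRXN3 held 3 of the 6 regions of the last class, at chr14:78227619-78228018, chr14:78737187-78737586 and chr14:78892750-78893149, each with the same coordinates in hPSC and shHNRNPU. The intervals of the 3 classes in the 9 genes overlapped one another, and the split by class was made after these lists had been seen.

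**Figure D4:**
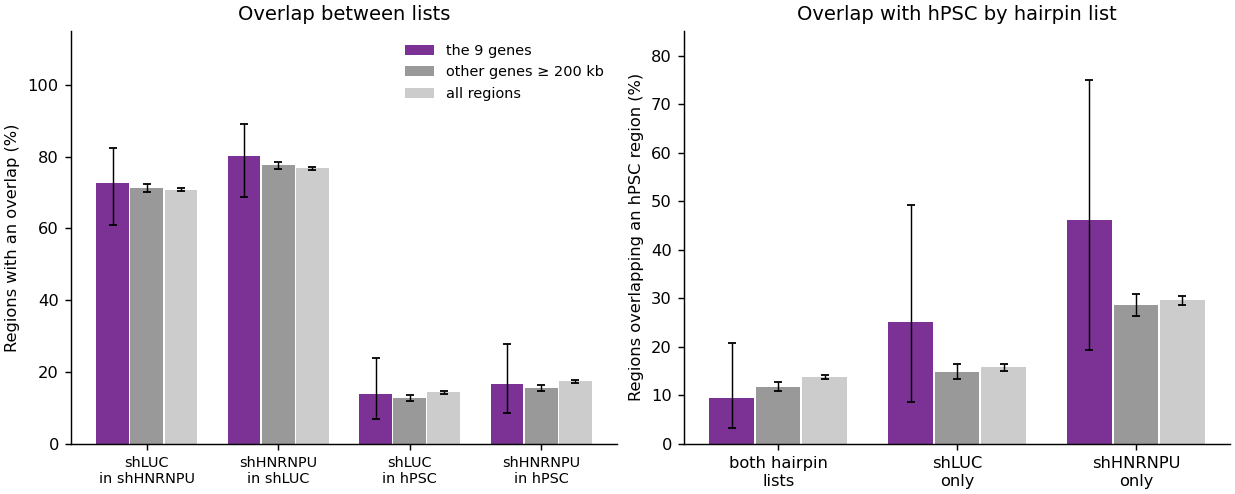
Overlap of regions between lists, as percent of the regions of the first list named, in the 9 genes, in the other protein-coding genes of at least 200 kb and in the whole lists. The left panel gives the overlap between pairs of lists and the right panel the overlap with hPSC of regions in both hairpin lists or in 1 of them. Bars start at 0 and error bars are exact 95% Clopper-Pearson intervals. The values of the 9 genes have wide intervals that hold those of the other long genes in all 7 groups of bars.

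Of the 73 shLUC regions, 5 overlapped both other lists (6.85%, interval 2.26% to 15.3%), against 8.38% in the other long genes and 9.66% of all shLUC regions. CNTN3, CNTN4 and CNTN5 each had theirs over the promoter window. CNTNAP2 had 1 inside the gene, at chr7:146772575-146772974 in all 3 lists, and NRXN3 had 1 at chr14:79631329-79631728 in the hairpin lists and chr14:79631231-79631630 in hPSC. Of the 5 shLUC regions over a promoter window, 4 overlapped hPSC, while of the 68 elsewhere 6 did (8.82%, interval 3.31% to 18.2%). The other long genes had the same order, with 57.5% over a promoter window and 10.0% elsewhere, and so had all shLUC regions with 54.4% and 11.0%. A shHNRNPU region overlapped 3 of the 5 and 50 of the 68 (73.5%, interval 61.4% to 83.5%), against 81.5% and 70.7% in the other long genes. Away from the promoter windows, 56 of 67 hPSC regions overlapped neither hairpin list (83.6%), a share equal within its interval (72.5% to 91.5%) to the 83.7% of the other long genes and the 82.8% of all such regions.

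**Figure D5:**
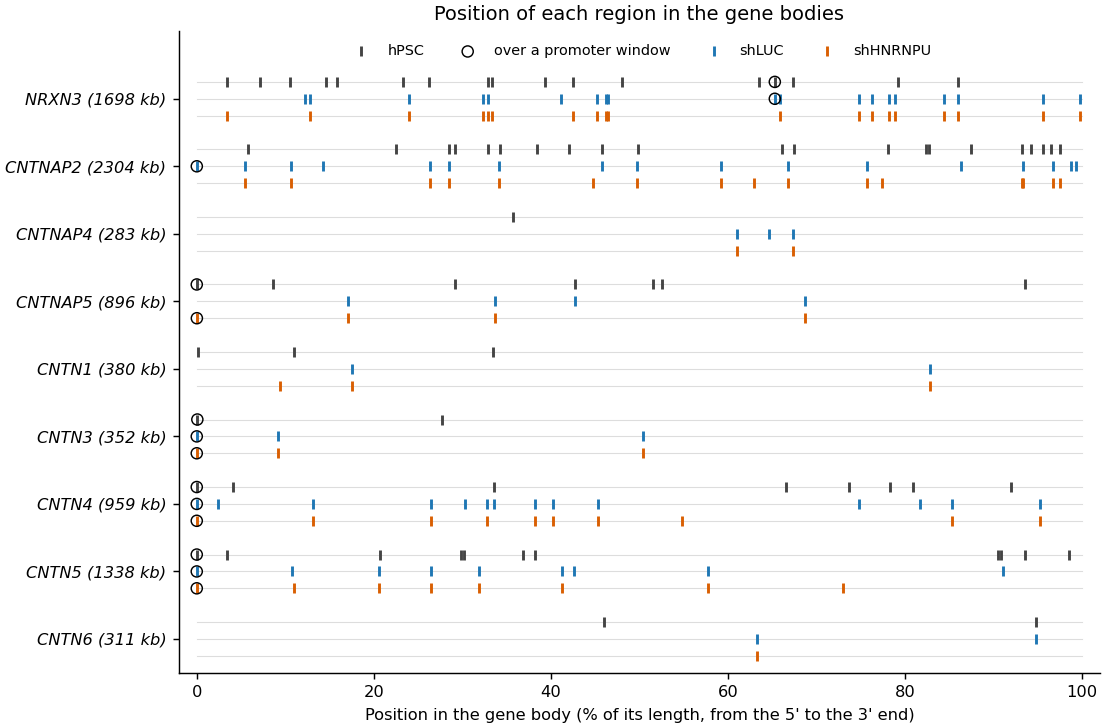
Position of every region in the 9 gene bodies, as percent of gene length from the 5′ end (0) to the 3′ end (100). Each gene has 1 line per list (hPSC, shLUC and shHNRNPU from top to bottom), a tick is a region, and a circle marks a region over a promoter window. Most shLUC and shHNRNPU ticks fall at the same positions, and hPSC ticks mostly fall elsewhere.

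Along the gene bodies no end was strongly preferred. The first 10% and the last 10% of the 9 genes together held 23 of 72 regions in hPSC (31.9%, interval 21.4% to 44.0%), 16 of 73 in shLUC (21.9%, 13.1% to 33.1%) and 15 of 66 in shHNRNPU (22.7%, 13.3% to 34.7%). The other 1150 long genes with a known strand had 27.0%, 26.7% and 27.3%. In those genes the first 10% held more than the last (17.4% against 9.61% in hPSC), whereas in the 9 genes hPSC had 11 regions in the first 10% and 12 in the last. CNTNAP2 with 5 and CNTN5 with 4 gave most of the latter.

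Spacing was wide. The median distance between the centres of neighbouring regions in the same gene was 82.9 kb for the hPSC list (interval of the median 53.8 to 97.3), 86.9 kb for shLUC (49.9 to 127) and 96.0 kb for shHNRNPU (70.6 to 142). It was 41.6, 42.2 and 45.5 kb in the other long genes and 70.3, 65.7 and 69.4 kb in those of at least 1 Mb. Of the 4 genes with at least 8 regions in each list, CNTNAP2 had medians of 86.5, 129 and 114 kb and NRXN3 of 66.8, 51.0 and 58.4 kb. Those of CNTN4 were 68.6, 44.9 and 91.1 kb, and those of CNTN5 56.0, 129 and 128 kb. Close pairs were few, with 5 of 63, 5 of 64 and 4 of 57 gaps under 10 kb. One was in NRXN3, where both hairpin lists held chr14:78954383-78954782 and chr14:78958269-78958668, with centres 3.89 kb apart. The closest pair of all was in CNTNAP2 in shHNRNPU, with centres 2.50 kb apart, where the first region was shared with hPSC and the second with shLUC.

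The surroundings of the genes held regions at densities close to those of the genes. The flanks of 500 kb on either side of each gene covered 8695 kb of distinct sequence, since those between CNTN6 and CNTN4 overlap. They held 8.51 regions per Mb in hPSC (interval 6.68 to 10.7), 8.97 in shLUC (7.09 to 11.2) and 7.36 in shHNRNPU (5.67 to 9.40). These averages joined unlike flanks. The flank before NRXN3, with ALKBH1, SLIRP, SNW1 and ADCK1, held 7, 11 and 9 regions, and the flank after it held 1, 2 and 1. The flank after CNTNAP2, with CUL1 and EZH2 among its genes, held 12, 9 and 11, and the flank after CNTN5, with ARHGAP42, held 8, 14 and 9. Both flanks of CNTNAP5 together held 4, 3 and 3 regions and touch no other protein-coding gene. No other protein-coding gene overlaps any of the 9 bodies, so none of the member regions was also that of a second protein-coding gene.

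CNTN6 and CNTN4 are neighbours on the short arm of chromosome 3, next to CHL1, a further adhesion molecule of the immunoglobulin superfamily. Over this stretch the densities in hPSC were 4.70 regions per Mb in CHL1, 8.78 between CHL1 and CNTN6, 6.43 in CNTN6, 8.64 between CNTN6 and CNTN4 and 8.34 in CNTN4. In shLUC they were 9.40, 2.93, 6.43, 4.32 and 14.6, and in shHNRNPU 9.40, 2.93, 3.21, 7.20 and 10.4. The hPSC list thus held as many regions per Mb between the genes as in CNTN4, and shLUC held fewer there. The counts are small, with 6, 2 and 2 regions between CHL1 and CNTN6 and 6, 3 and 5 between CNTN6 and CNTN4.

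Other genes of the families were read in the same way. NRXN2 (117 kb) held 4 regions in hPSC, 8 in shLUC and 7 in shHNRNPU. It differed by 1.5-fold or more between hPSC and shLUC, as did 48.0% of all genes tested. Between the hairpin lists it did not, where 19.7% of all genes tested did. It had 34.2, 68.4 and 59.8 regions per Mb, well above the 9 genes, in a body far shorter than theirs. CNTN2 held 2, 1 and 1, CNTNAP3 held 0, 1 and 1, and CNTNAP1, CNTNAP3B and CNTNAP3C held none in any list. CNTNAP3 and its relatives are near-identical copies, in which short reads cannot always be placed, so their low counts are uncertain.

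Of 26 genes for binding partners of these proteins, 15 held a region in hPSC, 23 in shLUC and 17 in shHNRNPU (57.7%, 88.5% and 65.4%, against 57.8%, 52.7% and 52.0% of all protein-coding genes). Only 3 held 10 or more in a list. These were NLGN1, a neuroligin, with 11, 9 and 11, LRRTM4, a postsynaptic partner of neurexins, with 12, 7 and 7, and PTPRG, a receptor phosphatase that binds contactins, with 10, 20 and 23. Between the hairpin lists 6 partners had at least 10 regions together, and 1 of them, APP, a precursor protein that binds contactins, passed 1.5-fold with 4 regions in shHNRNPU and 8 in shLUC (19.7% of all genes tested). Between hPSC and shLUC 4 of 7 passed, beside 48.0% of all genes tested. Partners held 12.4, 16.6 and 14.4 regions per Mb. The intervals for shLUC (13.4 to 20.5) and shHNRNPU (11.4 to 18.0) lay above those of the 9 genes. The interval for hPSC (9.61 to 15.7) overlapped that of the 9 genes. Only 10 of the 26 partners are at least 200 kb long.

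Genes with densities most like the median of the 9 were sought among the 1279 other protein-coding genes of at least 200 kb with a region in every list. The medians of the 9 genes, taken in each list on its own, were 7.90, 7.38 and 7.06 regions per Mb. By the distance of log2 densities over the 3 lists, the nearest were EBF1 (distance 0.12, 3 regions in each list), RNLS (0.13, 3 in each) and DENND1B (0.14, 2 in each).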

How the data were processed

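MAR-seq data of H1 cells were used, from 6 samples, 2 each of hPSC, shLUC and shHNRNPU. The authors deposited 1 list per group, whose rows give the coordinates of a region and a score, which is 0 throughout. The submitters' processing notes name cutadapt, Bowtie2, SAMtools, MACS2, deepTools and hg38, with no version, role or order. Whether a list pools both samples, and the threshold and input used for calling, are not given in the sources used here, nor is the meaning of the tag rp1 in the hPSC region names. No methods were taken from a paper. A fixed width and a threshold on calling make a list insensitive to weak or broad attachment, and depth, which is unknown, sets how many regions pass.

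The name of each list gave its group. Regions were joined to gene bodies and promoter windows of RefSeq (GRCh38.p14) by overlap of at least 1 bp and printed with 1-based coordinates. Strand came from the promoter windows. A member past 1.5-fold had a ratio of region counts of at least 1.5 in either direction among genes with at least 10 regions in both lists together. All 9 genes, other family members and partners with at least 10 regions in a list were named, together with the 3 genes nearest in density. Promoters were printed where a region of any list overlapped them. One item of the family list is not reported here. The members, gene lists and rules were chosen with earlier results of these data known. Region sequences and exon positions are not analysed here, since no genome was used. The counting was tested on simulated lists. The tools were pandas 2.3.3, numpy 2.4.6, matplotlib 3.10.9 and scipy 1.17.1 in Python 3.11.15.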

Additional observations from a re-analysis of the deposited data

How the results depend on the processing

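Of 58 values obtained under alternative settings for 17 results, 53 lay within the counting interval of the value reported, or, for a count of genes, within 1.5 times of it. The settings were the region centre in the gene body, merging of regions under 1 kb apart, gene bodies extended by 10 kb, CNTNAP2 left out, scaling to list totals, overlap of 50% of both regions, centres within 5 kb, and the other definitions named here. Some of these values could not have differed. The closest neighbouring centres in a member gene were 2.50 kb apart, so merging changed no value. A fold of 2 also cannot call a gene between the hairpin lists, where 1.5-fold called 0. The number of members past 1.5-fold between shHNRNPU and shLUC rose from 0 to 2 with a minimum of 5 regions (CNTNAP4 and CNTN1, each with 2 and 3 regions). Between hPSC and shLUC it went from 2 to 0 with a fold of 2 and to 4 with a minimum of 5 regions. With the outer 50 kb at each end in place of the outer 10%, which covers less of a long gene, the share of regions near the ends was 13.9% in hPSC and 12.1% in shHNRNPU. Counting centres within 5 kb took the overlap of shLUC with hPSC from 13.7% to 23.3% and that of shHNRNPU with hPSC from 16.7% to 24.2%. Leaving out regions over promoter windows, a setting added after the data were seen, took them to 8.82% and 11.3%. No paired analysis was possible because the files give 1 list for both samples of a group, and for the same reason no replicate was left out. With at most 21 regions in a gene, single genes have ratios with wide intervals.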
